A study of Mus musculus with 20 samples.

Results

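Complement is a cascade of plasma and tissue proteins that marks particles and damaged cells for removal and calls in leukocytes. C1q binds immune complexes and dying cells and starts the classical pathway, in which C4 and C2 form the enzyme that cleaves C3, whereas factor B and C3 itself form the corresponding enzyme of the alternative pathway. The small fragments released from C3 and C5 act on the receptors C3aR and C5aR of myeloid cells. In adipose tissue, C1q is a product of tissue macrophages, and adipocytes are a known source of factor D (adipsin), the protease that activates factor B.

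The transcripts described here are the 9 genes C1qa, C1qb, C1qc, C2, C4b, C3, Cfb, C3ar1 and C5ar1, taken by gene name from the 25618 genes tested on the arrays. They were measured by 13 probes, of which 12 passed the filter on dim signals, and all 9 genes kept at least 1 probe. Each gene is given by its brightest probe, and every one of the 12 was above background on all 20 arrays. The probe left out, a second one for C1qc (transcript ENSMUST00000153104), was above background on 2 arrays.

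Each array held RNA of epididymal visceral adipose tissue of 1 male C57bl/6J mouse of the F3 generation, collected after an obesogenic challenge or its control diet. The Ref group (n = 6) came from the control lineage, whose breeding diet carried high-oleic sunflower oil over the generations, and was fed the low-fat diet. The HFoleic group (n = 6) came from the same lineage and was fed the high-fat diet. The HFepa group (n = 8) was fed the high-fat diet too, and came from the omega 3 lineage, whose breeding diet carried a fish oil rich in eicosapentaenoic acid (EPA). No group of the omega 3 lineage on the low-fat diet was analysed here, so HFepa vs. Ref differs in both diet and lineage. Mice whose RNA did not reach the integrity limit of the study had been left out before hybridization. Levels are log2 median spot signals after quantile normalization, and differences are log2 fold changes with the standard error (SE) of the limma model fitted to all 20 arrays. A gene was called at an adjusted p under 0.05 (moderated test of limma, Benjamini–Hochberg over all 39390 probes). The signal of one probe was not set against that of another, because their brightness differs for technical reasons.

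The share of spots above background ran from 66.1% to 71.9%, no spot was saturated, and none of the members had a missing value. The arrays lay on 3 slides, each with mice of all groups. Adipocyte markers such as Adipoq were detected on all arrays, and the mean of the 8 adipocyte markers was 16.02 ± 0.09 (SD) in Ref, 15.84 ± 0.15 in HFoleic and 15.95 ± 0.13 in HFepa. Single markers moved in both directions in HFoleic vs. Ref, where 4 of the 8 were called and 31.8% of all genes. Lep was higher (log2 1.13), and Lipe (-1.19), Retn (-0.65) and Pnpla2 (-0.42) were lower. The mean of the hepatocyte markers varied within every group and overlapped between groups. It ran from 8.53 to 11.29 in Ref, from 8.50 to 12.20 in HFoleic and from 9.21 to 11.49 in HFepa. The mean of the markers of epididymis and testis varied likewise, from 6.12 to 7.94, 6.28 to 8.90 and 6.07 to 7.94. In HFoleic vs. Ref, 1 of 8 hepatocyte markers was called (31.8% of all genes), Cyp2e1, which was lower (log2 -1.29, limma adjusted p = 0.0105). Its mean level was 18.10 in Ref, 16.81 in HFoleic and 17.34 in HFepa. Whether this transcript came from liver or from the fat itself was not tested. Of 5 epididymis and testis markers 1 was called, Spink2, which was higher (1.09, limma adjusted p = 0.00653). The part of such admixed tissue in the complement levels was not tested.

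In HFoleic vs. Ref, 8 of the 9 complement genes passed the test, where 31.8% of all genes tested did. The C1q chains, C3, Cfb and both anaphylatoxin receptors rose, which makes 7 genes called higher against 15.2% of all genes. C2 fell, the 1 gene called lower, against 16.7% of all genes. C4b was not called. Every HFoleic mouse lay above every Ref mouse for 5 of the genes (6.92% of all genes did so), and every HFoleic mouse lay below every Ref mouse for C2 (7.09% of all genes). The median difference was 0.82 over the 9 genes and -0.04 over all genes. In HFepa vs. Ref, 0 of the 9 genes were called (2.46% of all genes), and 2, Cfb and C2, had an unadjusted p under 0.05 (21.6% of all genes). In HFepa vs. HFoleic, 0 of 9 were called and 0% of all genes were, while 7, all but C1qc and C4b, had an unadjusted p under 0.05 (20.8% of all genes). The number of mice limits the precision of each of these values.

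**Figure D1:**
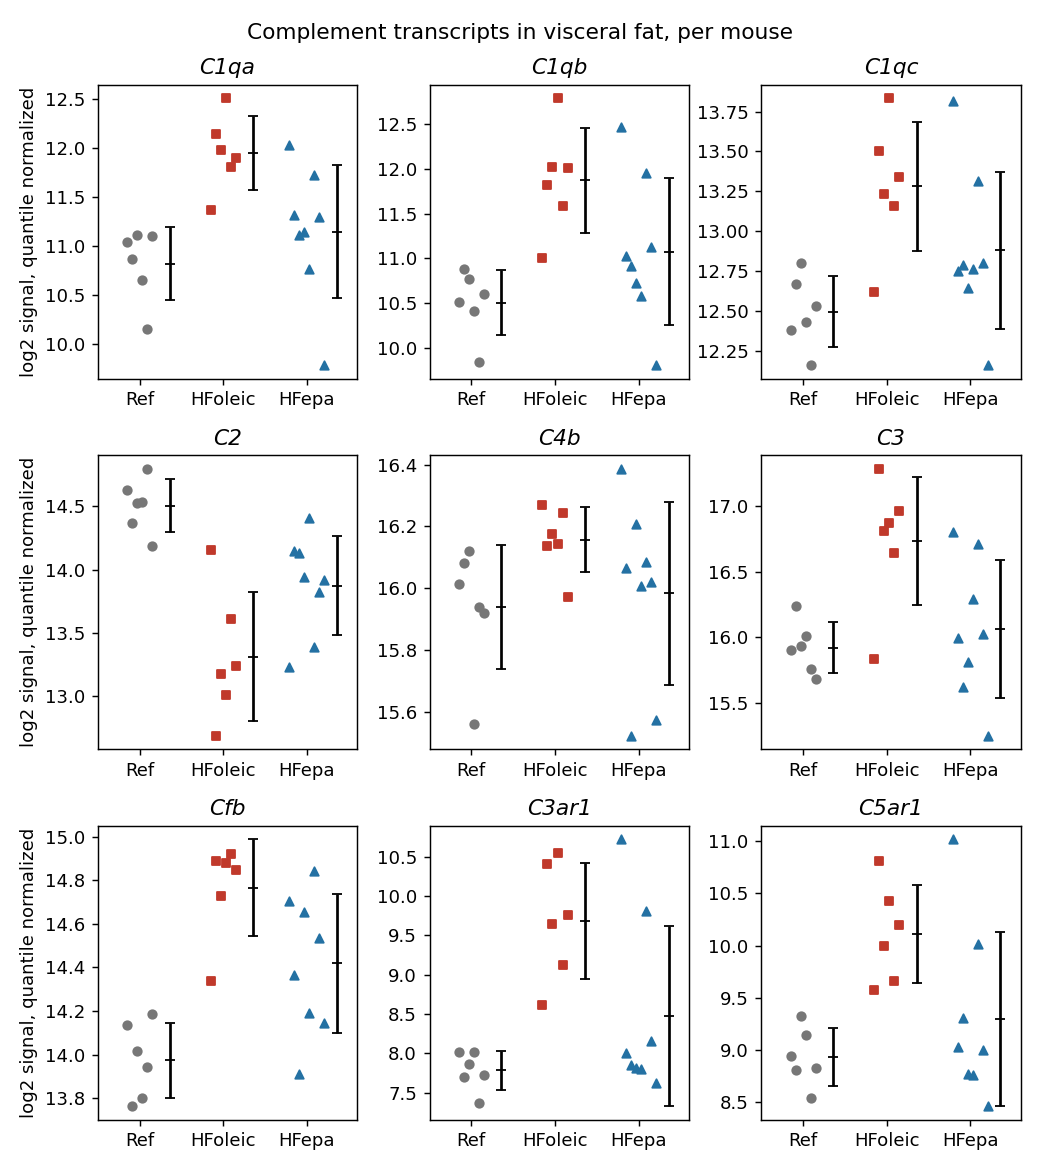
Level of each complement gene (log2 signal, quantile normalized, y axis) in every mouse of the Ref (circles, n = 6), HFoleic (squares, n = 6) and HFepa (triangles, n = 8) groups. The black dash and bar give the group mean ± SD, each panel has its own y scale, and C2 is the gene whose HFoleic mice all lie below the Ref mice.

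C1qa, C1qb and C1qc encode the A, B and C chains of C1q, the recognition molecule of the classical pathway. Their probes lay next to each other on chromosome 4, within 15.9 kb on mm9, in the order C1qb (chr4:136436578-136436637), C1qc (chr4:136445766-136445825) and C1qa (chr4:136452409-136452468). The promoter table, made from RefSeq on GRCm38.p6, held entries for 5 of the 9 genes. Those of C1qb and C1qc are shown because these neighbours moved together in the mice, and that of C3 because it is the component on which all pathways meet; each is the 250 bases before the gene start on the minus strand, at chr4:136886201-136886450, chr4:136892915-136893164 and chr17:57228137-57228386. Capitals mark matches on either strand to the core motif of the myeloid factor PU.1 (GAGGAA) in the C1q promoters and to a C/EBP motif (TTGCNNAA) in that of C3.
C1qb: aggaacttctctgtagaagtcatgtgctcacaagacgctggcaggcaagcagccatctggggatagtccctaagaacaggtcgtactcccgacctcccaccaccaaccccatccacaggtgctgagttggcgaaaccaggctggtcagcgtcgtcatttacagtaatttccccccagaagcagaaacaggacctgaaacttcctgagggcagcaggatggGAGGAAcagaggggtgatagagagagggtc
C1qc: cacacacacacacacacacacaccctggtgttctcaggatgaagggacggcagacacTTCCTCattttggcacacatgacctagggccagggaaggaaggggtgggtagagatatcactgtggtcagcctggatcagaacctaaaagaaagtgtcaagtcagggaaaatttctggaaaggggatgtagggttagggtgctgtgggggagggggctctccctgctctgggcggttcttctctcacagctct
C3: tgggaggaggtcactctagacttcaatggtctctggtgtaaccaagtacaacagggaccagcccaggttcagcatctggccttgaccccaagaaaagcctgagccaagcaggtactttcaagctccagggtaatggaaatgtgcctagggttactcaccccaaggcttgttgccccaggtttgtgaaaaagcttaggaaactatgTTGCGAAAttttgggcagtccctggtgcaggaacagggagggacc
The PU.1 core stood 30 bases before the start of C1qb and began 193 bases before that of C1qc, there on the opposite strand. It was found in 23.3% of the 32851 promoters of this length, so a match in 2 of 5 is a description of these letters and not of a binding site. The C/EBP letters began 45 bases before the start of C3 and were found in 9.56% of promoters. C3ar1 and C5ar1 held neither motif in this window.

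C1qa was measured at 10.15 to 11.11 in Ref (median 10.96), 11.37 to 12.51 in HFoleic (median 11.94) and 9.78 to 12.04 in HFepa (median 11.22). The Ref and HFoleic mice did not overlap, and the HFepa mice reached from below the lowest Ref mouse into the HFoleic range. C1qa rose 2.19-fold in HFoleic vs. Ref (log2 1.13, SE 0.28, adjusted p = 0.00504). C1qb was measured at 9.85 to 10.88 in Ref (median 10.56), 11.01 to 12.79 in HFoleic (median 11.92) and 9.80 to 12.47 in HFepa (median 10.97). It rose 2.58-fold in HFoleic vs. Ref (log2 1.37, SE 0.35, adjusted p = 0.00584), again without overlap of the groups. C1qc was measured at 12.16 to 12.80 in Ref (median 12.48), 12.62 to 13.83 in HFoleic (median 13.29) and 12.16 to 13.81 in HFepa (median 12.77). Here 1 HFoleic mouse, at 12.62, lay within the Ref range. C1qc rose 1.73-fold (log2 0.79, SE 0.22, adjusted p = 0.00981).

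In HFepa the C1q means stood between those of the other groups and nearer to Ref. HFepa vs. Ref gave a log2 difference of 0.33 for C1qa (95% interval -0.22 to 0.88, adjusted p = 0.512), 0.57 for C1qb (-0.11 to 1.25, adjusted p = 0.333) and 0.38 for C1qc (-0.04 to 0.81, adjusted p = 0.293). HFepa vs. HFoleic gave -0.805 for C1qa, with an interval of -1.35 to -0.26 and an adjusted p of 0.131. For C1qb the difference was -0.80 (-1.48 to -0.12, adjusted p = 0.178), and for C1qc -0.40 (-0.83 to 0.02, adjusted p = 0.268). In these limma tests neither difference of the HFepa group passed the threshold for any chain, so the order of HFepa and its neighbours is unresolved for all 3. For C1qa and C1qb the unadjusted interval of HFepa vs. HFoleic lay below 0.

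C2 encodes the serine protease of the C3 convertase of the classical and lectin pathways, and C4b the protein that anchors it to a surface. C2 was measured at 14.18 to 14.79 in Ref (median 14.53), 12.69 to 14.16 in HFoleic (median 13.21) and 13.23 to 14.40 in HFepa (median 13.93). All HFoleic mice lay below all Ref mice, the highest of them by a small margin. C2 fell 2.28-fold in HFoleic vs. Ref (log2 -1.19, SE 0.21, adjusted p = 0.000715), and it was the only member with a negative difference in that comparison. In HFepa vs. Ref it was lower by a log2 difference of -0.63 (95% interval -1.05 to -0.22), which did not pass the threshold (adjusted p = 0.0865). In HFepa vs. HFoleic the difference was 0.56 (0.15 to 0.97, adjusted p = 0.143).

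C4b was measured at 15.56 to 16.12 in Ref (median 15.98), 15.97 to 16.27 in HFoleic (median 16.16) and 15.52 to 16.39 in HFepa (median 16.04). The groups overlapped throughout. HFoleic vs. Ref differed by a log2 of 0.22 (95% interval -0.05 to 0.48, adjusted p = 0.204), HFepa vs. Ref by 0.04 (-0.20 to 0.29, adjusted p = 0.872) and HFepa vs. HFoleic by -0.17 (-0.42 to 0.07, adjusted p = 0.421). A second C4b probe gave 0.36 in HFoleic vs. Ref (SE 0.17, adjusted p = 0.107), -0.34 in HFepa vs. HFoleic (adjusted p = 0.23) and 0.03 in HFepa vs. Ref. The neighbouring gene C4a, a near-identical copy of C4b, was read by its own probe and rose by log2 0.55 in HFoleic vs. Ref (SE 0.15, adjusted p = 0.00765). How far the probes of these copies pick up each other's transcript is uncertain.

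C3 is cleaved by the convertases and is itself part of that of the alternative pathway. It was measured at 15.68 to 16.24 in Ref (median 15.92), 15.84 to 17.29 in HFoleic (median 16.84) and 15.25 to 16.80 in HFepa (median 16.01). In HFoleic, 1 mouse stood at 15.84, inside the Ref range, and the others above it. C3 rose 1.76-fold in HFoleic vs. Ref (log2 0.82, SE 0.24, adjusted p = 0.0141), and its second probe gave 0.76 (SE 0.24, adjusted p = 0.0234). HFepa vs. Ref was 0.14 (95% interval -0.33 to 0.61, adjusted p = 0.77). HFepa vs. HFoleic was -0.67 (-1.14 to -0.21, adjusted p = 0.133).

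Cfb encodes factor B, the protease of the alternative convertase and the counterpart of C2. It was measured at 13.76 to 14.18 in Ref (median 13.98), 14.34 to 14.92 in HFoleic (median 14.86) and 13.91 to 14.84 in HFepa (median 14.45). The Ref and HFoleic mice did not overlap, and HFepa spanned the gap between them. Cfb rose 1.73-fold in HFoleic vs. Ref (log2 0.79, SE 0.14, adjusted p = 0.000722), with 0.90 for its second probe (SE 0.17, adjusted p = 0.00104). HFepa vs. Ref was 0.44 (95% interval 0.17 to 0.72, adjusted p = 0.0725) and HFepa vs. HFoleic -0.35 (-0.62 to -0.07, adjusted p = 0.156). The probes of Cfb and C2 lay within 6.13 kb of each other on chromosome 17 (chr17:34993502-34993858 and chr17:34999575-34999634 on mm9), so these neighbours, which encode homologous proteases, moved in opposite directions in the HFoleic mice. C4b lay 134 kb from C2 (chr17:34865367-34865426) and C3 elsewhere on the chromosome (chr17:57343416-57343475).

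C3ar1 encodes the receptor of C3a and C5ar1 the first receptor of C5a. C3ar1 was measured at 7.37 to 8.02 in Ref (median 7.79), 8.62 to 10.55 in HFoleic (median 9.70) and 7.62 to 10.72 in HFepa (median 7.93). Every HFoleic mouse lay above every Ref mouse, and in HFepa 1 mouse lay above all HFoleic mice, 1 lay among them, and the others lay near Ref. C3ar1 rose 3.73-fold in HFoleic vs. Ref (log2 1.90, SE 0.45, adjusted p = 0.00408), the largest difference among the members. C5ar1 was measured at 8.54 to 9.33 in Ref (median 8.88), 9.57 to 10.81 in HFoleic (median 10.09) and 8.47 to 11.02 in HFepa (median 9.02). It rose 2.26-fold in HFoleic vs. Ref (log2 1.18, SE 0.33, adjusted p = 0.0103), without overlap of the groups.

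For C3ar1, HFepa vs. Ref was 0.69 (95% interval -0.20 to 1.58, adjusted p = 0.375) and HFepa vs. HFoleic -1.21 (-2.10 to -0.32, adjusted p = 0.141). For C5ar1 these differences were 0.37 (-0.28 to 1.01, adjusted p = 0.536) and -0.81 (-1.45 to -0.17, adjusted p = 0.156). Both receptors were thus placed, by their group means, in the order Ref, HFepa, HFoleic, and only the outer pair of that order differed past the threshold. The same holds for the C1q chains, C3 and Cfb, and C2 had the reverse order. The HFepa mean lay between the others for 9 of the 9 genes, as it did for 64.2% of all genes.

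**Figure D2:**
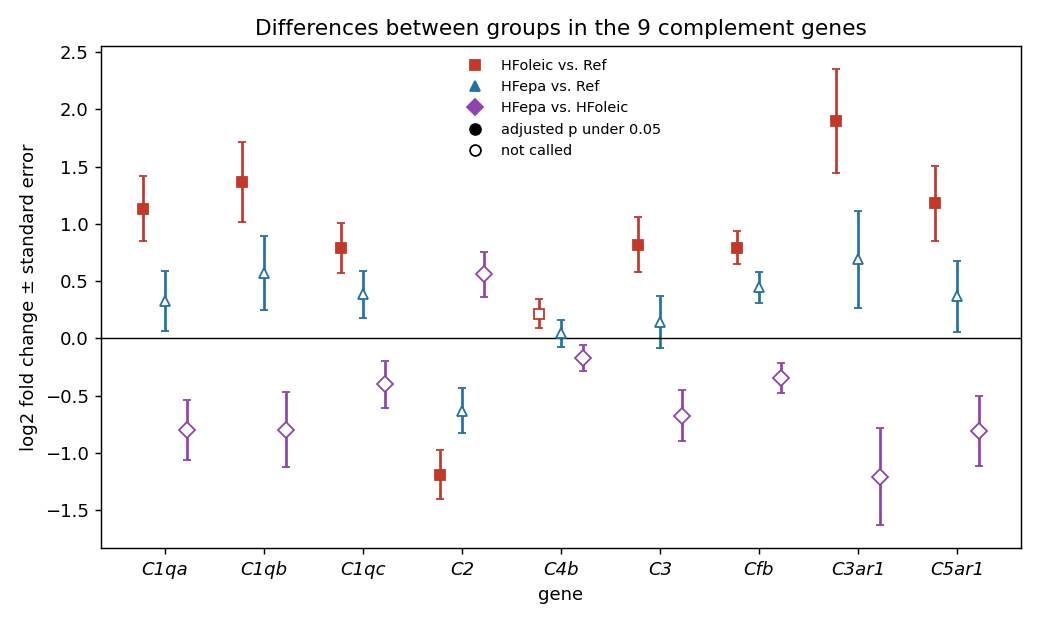
Log2 fold change ± SE (y axis) of the 9 complement genes (x axis) in HFoleic vs. Ref (squares), HFepa vs. Ref (triangles) and HFepa vs. HFoleic (diamonds), with filled symbols for an adjusted p under 0.05. The filled symbols are the 8 genes called in HFoleic vs. Ref, of which C2 alone lies below 0.

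The HFepa group was not uniform. Along the line from the Ref mean to the HFoleic mean over all probes (0 at Ref, 1 at HFoleic, each array left out of its own group mean), HFepa mice 1 and 6 stood at 1.14 and 1.00, and the other 6 HFepa mice between 0.116 and 0.416. HFoleic mouse 1 stood at 0.481, the lowest of its group. The complement genes differed in how far they showed this division. HFepa mouse 1 lay in the HFoleic range for 6 of the 9 genes and above it for C4b, C3ar1 and C5ar1, and HFepa mouse 6 lay in that range for 9 of 9. For C3ar1 these mice were at 10.72 and 9.82 and the other 6 at 7.62 to 8.15, of which 5 were in the Ref range and 0 in the HFoleic range. For C5ar1 they were at 11.02 and 10.01 and the other 6 at 8.47 to 9.31. For C4b they were at 16.39 and 16.09, and mouse 6 lay within the range of the other 6 (15.52 to 16.21). For C2 they were at 13.23 and 13.39, and the other 6 at 13.82 to 14.40, with 1 of these in the Ref range and 5 in the HFoleic range. That HFoleic range reached up to 14.16 through HFoleic mouse 1 alone. The next HFoleic mouse stood at 13.61, below all of these 6 HFepa mice. Without HFepa mouse 1, 7.27% of all probes were called in HFepa vs. HFoleic (limma), and 6 of the 9 genes: C1qa (-0.93, adjusted p = 0.0342), C1qb (-0.997, adjusted p = 0.0427), C3 (-0.78, adjusted p = 0.0377), C3ar1 (-1.53, adjusted p = 0.0272) and C5ar1 (-1.06, adjusted p = 0.0272) were lower and C2 (0.65, adjusted p = 0.0454) higher. Without HFoleic mouse 1 it was 4.21% of all probes and 2 of the genes, C2 (0.73, adjusted p = 0.037) and C3 (-0.85, adjusted p = 0.0362), and C2 was then also called in HFepa vs. Ref (-0.63, adjusted p = 0.0463; 3.15% of all probes). Leaving out HFepa mouse 6 instead gave calls for 0.00508% of all probes and none of the 9 genes in HFepa vs. HFoleic. Without HFepa mouse 3, Cfb was called in HFepa vs. Ref (0.52, limma adjusted p = 0.0196), as were 6.35% of all probes. Arrays were also weighted in limma by how closely each followed its group mean, so a mouse unlike its group counted for less. With these weights 7 genes, again all but C1qc and C4b, were called in HFepa vs. HFoleic (10.9% of all probes). Cfb was then called in HFepa vs. Ref (0.44, limma adjusted p = 0.0429), as were 3.69% of all probes. In HFoleic vs. Ref the same 8 genes were called whichever array was left out.

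Within each of the 3 slides, the difference of the means in HFoleic vs. Ref was positive for 8 of 9 genes and negative for 1. Within slides, C3ar1 differed by 1.78, 2.54 and 1.76 in that comparison and C2 by -1.03, -1.67 and -1.27, with 1 HFoleic mouse on the second slide. HFepa vs. HFoleic was negative for 8 genes and positive for 1 on each slide. In HFepa vs. Ref, 6, 8 and 6 genes were positive on the slides.

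Macrophage markers moved with the complement genes. Of 12 markers, 9 were called higher in HFoleic vs. Ref, where 15.2% of all genes were. Among these 9 were Cd68 (log2 2.41, limma adjusted p = 0.00158) and Adgre1, an adhesion receptor of macrophages (2.27, adjusted p = 0.0011). Cd163, a scavenger receptor of resident macrophages, fell (-0.54, adjusted p = 0.0239), and Mertk and Cd14 were not called. No marker of the list was called in the other comparisons. An unadjusted p under 0.05 was reached by 8 in HFepa vs. Ref (21.6% of all genes) and by 9 in HFepa vs. HFoleic (20.8%). The mean level of the list was 11.30 to 11.73 in Ref (median 11.61), 12.20 to 13.26 in HFoleic (median 12.86) and 11.32 to 13.24 in HFepa (median 11.87). HFoleic and Ref did not overlap. None of the 12 markers was below background on any array. The fibroblast list also stood higher in HFoleic, at 12.72 to 13.29 against 12.19 to 12.66 in Ref. Of its 9 markers 3 were called higher, where 15.2% of all genes were. The monocyte and dendritic cell list was at 9.78 to 10.11 in HFoleic and 9.49 to 9.83 in Ref, but its 6 markers were divided. In HFoleic vs. Ref 3 had a positive and 3 a negative difference, with a median of 0.06. Of the 6, 3 were called, where 31.8% of all genes were. Ccr2 (1.40) and Flt3 (1.00) were higher, and Zbtb46 was lower (-0.65, limma adjusted p = 0.00517). In whole tissue, more cells of a type and more RNA of a gene per cell cannot be told apart.

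After the group means were taken out, the deviations of the 20 mice from their group still ran together. Pearson's r with the macrophage list was 0.97 for C3ar1, 0.93 for C5ar1, 0.92 for C1qc, 0.92 for C1qb, 0.86 for C1qa, 0.84 for C3 and 0.70 for Cfb. It was -0.82 for C2 and 0.45 for C4b. Spearman's rho ran from 0.62 to 0.93 for the first 7 genes, and was -0.83 for C2 and 0.19 for C4b. Without the pair of mice farthest from the median of the list, r was 0.93 for C3ar1, 0.87 for C1qb, -0.76 for C2 and 0.21 for C4b. These values are descriptions over 20 arrays that share probes, slides and normalization.

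**Figure D3:**
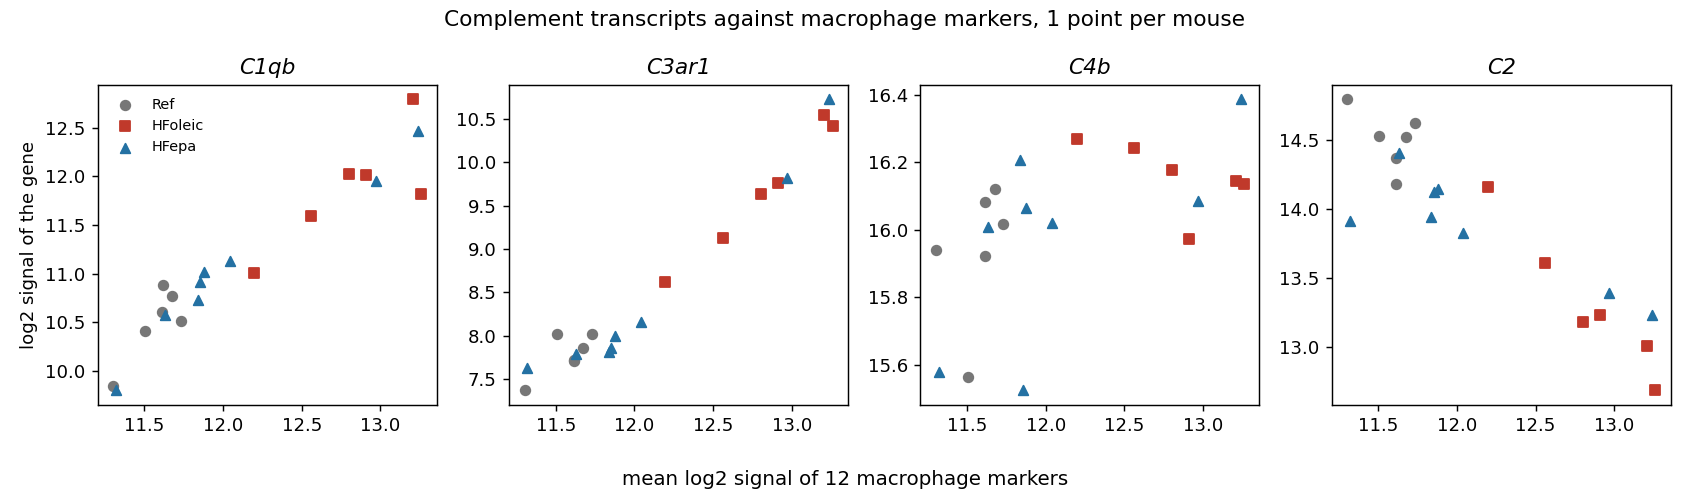
Level of C1qb, C3ar1, C4b and C2 (log2 signal, y axis) against the mean log2 signal of 12 macrophage markers (x axis), 1 point per mouse, with circles for Ref, squares for HFoleic and triangles for HFepa. C1qb and C3ar1 climb along the axis in all groups, C2 descends, and C4b has no comparable slope.

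To see which genes moved by more or less than the macrophage list, the mean of the list was subtracted from each gene in each mouse, and the groups were compared with exact 2-sided permutation tests, adjusted over 27 tests. Relative to the list, C3ar1 was higher in HFoleic vs. Ref by a log2 of 0.65 and C2 lower by -2.44, each with an exact permutation adjusted p of 0.0234, with -3.14 ± 0.35 in HFoleic against -3.79 ± 0.17 in Ref for C3ar1 and 0.49 ± 0.91 against 2.93 ± 0.31 for C2 (SD). C1qc (-0.46), C3 (-0.43), C4b (-1.03) and Cfb (-0.46) were lower relative to the list, with exact permutation adjusted p of 0.0234, 0.0234, 0.0234 and 0.0449, but these 4 did not pass when the median of the list replaced its mean, and C3 then had a difference of 0.0002. C3ar1 no longer passed when Ref mouse 4, 6 or 7 was left out (exact permutation adjusted p = 0.0584 each), whereas C2 passed whichever of the 20 arrays was left out. Cfb passed in 5 of these 20 repeats and C3 in 18. C1qa (-0.12), C1qb (0.12) and C5ar1 (-0.07) did not pass with either. In HFepa vs. Ref, C2 was lower relative to the list (-1.15, exact permutation adjusted p = 0.0449), and in HFepa vs. HFoleic C1qc was higher (0.32, exact permutation adjusted p = 0.0449). Neither passed with the median of the list, and with 1 array left out they passed in 8 and 3 of 20 repeats.

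Among the members themselves, the deviations were most alike for C1qb and C1qc (Pearson's r = 0.96 over 20 mice), C3ar1 and C5ar1 (0.95), and C1qa and C1qb (0.93). C2 had a negative r with each of the others, from -0.17 with C4b to -0.82 with C3ar1. C4b had the weakest values, between 0.33 and 0.56 with the other 7 (Spearman's rho 0.01 to 0.39). With 2 mice left out of each pair of genes, r for C4b was 0.01 to 0.29. These 2 mice were the farthest from the median of the C1q chain, or of C4b in the pairs without one. They could differ between pairs, so it was not shown that the same mice carried all the values. Outside the members, the genes most like each one by the same measure were these. For C1qa they were Csf1r (0.93), the receptor of macrophage colony-stimulating factor, Mmp2 (0.91) and Fcgr3 (0.91), an Fc receptor. For C1qb they were Trex1 (0.96), Fcgr3 (0.94) and Fermt3 (0.94), and those given for C1qc are Wdfy4 (0.95) and Hcst (0.95). For C2 they were Grhpr (0.94), an enzyme of glyoxylate metabolism, 2010016I18Rik (0.94) and H2-Ke6 (0.93). Those of C4b had lower values, with Il18 (0.83), C4a (0.80) and Bfsp1 (0.78). For C3 they were Irf8 (0.92), a transcription factor of myeloid cells, Mpp6 (0.92) and Gmfg (0.91). Kcnj14 (0.91) and a pair of transcripts named only by position were nearest to Cfb. For C3ar1 they were Stap1 (0.99), Tlr13 (0.99) and Ly9 (0.99), and for C5ar1 Msr1 (0.97), the macrophage scavenger receptor, Plek (0.97) and Stap1 (0.97).

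The rest of the complement system was taken from a list of 49 further genes, of which 43 were tested. In HFoleic vs. Ref, 15 of the 43 were called, 9 higher and 6 lower, a share close to the 31.8% of all genes, and the median difference was 0.13. In the limma tests of HFepa vs. Ref and of HFepa vs. HFoleic 0 of the 43 were called by their brightest probes (2.46% and 0% of all genes). An unadjusted p under 0.05 was reached by 14 and 9, where 21.6% and 20.8% of all genes reached it. The largest rises were those of receptor subunits. Itgax encodes CD11c, the alpha chain of complement receptor 4, and was measured at 8.58 to 10.42 in Ref and 11.20 to 13.52 in HFoleic (log2 3.16, SE 0.59, adjusted p = 0.000936). Its other probes were dim, above background on 11 and 7 arrays, and gave 0.43 (adjusted p = 0.311) and 0.86 (adjusted p = 0.00251). Itgb2 encodes the beta chain shared by complement receptors 3 and 4, and rose by 2.67 (SE 0.54, adjusted p = 0.00147), without overlap of the groups. Itgam, the alpha chain of complement receptor 3, was not called (0.30, limma adjusted p = 0.075), and neither were Cr2 and Vsig4. C5ar2, the second receptor of C5a, rose by 1.16 (SE 0.26, adjusted p = 0.00298). Of the 8 receptors tested, 4 were called higher (15.2% of all genes), including Cd93 (0.42, limma adjusted p = 0.0239). Called lower was 1 (16.7% of all genes), C1qbp (-0.27, limma adjusted p = 0.0104), a mitochondrial protein that also binds C1q.

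Of the regulators, Serping1, the inhibitor of C1, rose by 0.70 (SE 0.17, adjusted p = 0.00386). It was the 1 called of 8 soluble regulators, where 31.8% of all genes were called. Of the 5 membrane regulators 2 were called by their brightest probes, where 31.8% of all genes were. Cd55 was not called by its brightest probe (0.22, limma adjusted p = 0.202) but was by another (0.44, limma adjusted p = 0.00472). Cr1l was not called by its brightest probe (0.13, limma adjusted p = 0.0884) but was by another (0.13, limma adjusted p = 0.0324). The remaining probes of Cd55 and Cr1l were not called. Cd59a, which blocks the membrane attack complex, rose by 0.64 (SE 0.12, adjusted p = 0.00114). Its second probe gave 0.66 (limma adjusted p = 0.00108). In HFepa vs. Ref that second probe was called (0.47, limma adjusted p = 0.0408), as were 2.26% of all probes. The brightest Cd59a probe was not called there (0.41, limma adjusted p = 0.0591). Cd46, a cofactor in the cleavage of C3b, fell by 0.58 on the log2 scale (SE 0.12, adjusted p = 0.00146). Outside the regulators and receptors, Cfp (properdin, which stabilizes the alternative convertase) was higher by 0.42 (second probe 0.77, adjusted p = 0.00316). Cfd (adipsin) was lower by -0.50 (SE 0.13, adjusted p = 0.00742), with -0.99 for its second probe (SE 0.21, adjusted p = 0.00167). The first Cfd probe reached the same highest value, 18.57, in Ref and HFepa. The terminal components C6 and C7 fell by 0.94 (SE 0.24, adjusted p = 0.00629) and 0.49 (SE 0.13, adjusted p = 0.00796) on the log2 scale, each without overlap of the groups. The other 5 of the 7 terminal genes were not called, where 31.8% of all genes were called. Of the 5 tested proteases around C1, C1rl was called (0.38), and of 7 lectin pathway genes Colec12 was (-0.24), where 31.8% of all genes were. A second probe of C1s1 was called too (0.20, limma adjusted p = 0.0309), but its brightest probe was not (0.03, limma adjusted p = 0.85).

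**Figure D4:**
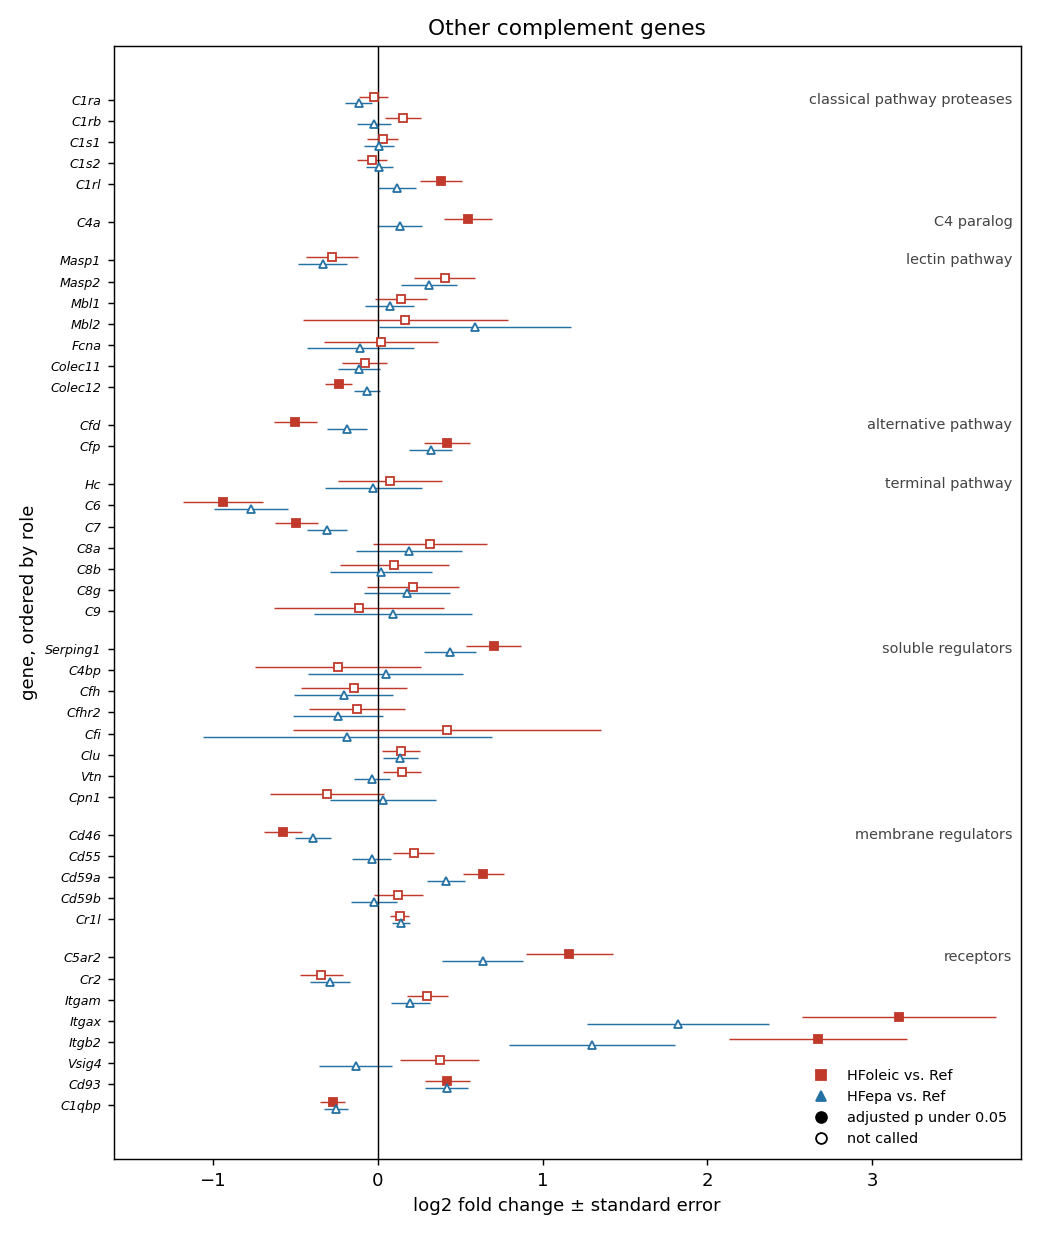
Log2 fold change ± SE (x axis) of the 43 other complement genes (y axis, grouped by role) in HFoleic vs. Ref (squares) and HFepa vs. Ref (triangles), with filled symbols for an adjusted p under 0.05. Itgax and Itgb2 lie farthest to the right, and C6 farthest to the left.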

How the data were processed

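Per the file headers, the authors extracted spot intensities with Agilent Feature Extraction 10.10.1.1; the deposited median and mean intensities are linear and not normalized, and the deposited processed intensities had background subtracted by that software. The authors also deposited log2 values, which their methods describe as filtered and quantile normalized median signals. The filter rule is not given in the sources used here.

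From the median intensities of 59305 non-control spots, marked outlier spots were set missing, probes well above background on at least 6 arrays were kept, and log2 values were quantile normalized and averaged over spots of a probe (R 4.3.3, limma 3.58.1). No background was subtracted, which compresses differences of dim probes. Groups followed the labels. A limma model, with 1 coefficient for each group, took in all 20 arrays, with Benjamini–Hochberg adjustment over 39390 probes. Genes are named by the array design, and probe coordinates are those of the files (mm9).

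The members, the lists of other complement genes and cell type markers, and the tests were chosen with earlier results of these data known. Named were all members, all called genes of the complement list, and the 3 genes most correlated with each member, of which 1 is not reported here. The steps were tested on simulated data. Alternatives covered signal, normalization, filters, slide, replicate number, array weights, variance prior, groups fitted, probe choice and single arrays. Array labels do not say whether mice shared a litter or cage.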

Additional observations from a re-analysis of the deposited data

Results flagged for a closer look

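Of 30 tests for a single mouse far from its group, 2 found one, where chance gives about 1 in 20. C4b of Ref mouse 5 was 15.56, with the nearest mouse of the group at 15.92. Cfb of HFoleic mouse 1 was 14.34, with the nearest at 14.73. The cause of either was not tested.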

How the results depend on the processing

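The number of members called in HFoleic vs. Ref was 8 under every alternative, and that of other complement genes 15 to 18 (12 to 16 with 1 array left out). Of all probes, 20.1% to 40.7% were called (25% to 33.5% with 1 array left out). With array weights, 7 members were called in HFepa vs. HFoleic and 1 in HFepa vs. Ref, and 4 and 3 other complement genes (10.9% and 3.69% of all probes). With 1 array left out, 0 to 6 members were called in HFepa vs. HFoleic (6 without HFepa mouse 1) and 0 to 1 in HFepa vs. Ref, and 0 to 3 and 0 to 5 other genes (3 without HFepa mouse 1, 5 without HFepa mouse 3). Of all probes, 7.27% were called in HFepa vs. HFoleic without HFepa mouse 1, and 6.35% in HFepa vs. Ref without HFepa mouse 3. Normexp, the filter on a whole group and the mean of all probes each called 1 other gene in HFepa vs. Ref. They called 2.72% and 3.11% of all probes and 2.39% of all genes. C4b in HFepa vs. Ref was -0.0040 with the processed signal and -0.0328 to 0.1091 with 1 array left out. Relative to the macrophage list, the processed signal gave 2 genes in HFepa vs. Ref and 0 in HFepa vs. HFoleic, where median centring also gave 0. The median over the list gave 2, 0 and 0 genes in the 3 comparisons; with it, HFoleic vs. Ref was 0.3176 for C1qa, 0.0002 for C3 and 0.3631 for C5ar1, HFepa vs. Ref 0.0718 for C1qa, 0.1285 for C1qc, 0.1876 for Cfb and 0.1101 for C5ar1, and HFepa vs. HFoleic -0.1155 for C3. With 1 array left out, the relative counts were 4 to 6, 0 to 2 and 0 to 3, and the relative differences reached -0.1344 to 0.0061 (C1qa), -0.1690 to 0.0352 (C1qb) and -0.0432 to 0.1073 (C3) in HFepa vs. HFoleic and -0.0299 to 0.1169 (C1qb) and -0.1506 to 0.0432 (Cfb) in HFepa vs. Ref. The cause of these changes was not tested. Replicate numbers did not pair the mice (16 pairs of same-numbered mice, r from -0.583 to 0.563, 5 over 0.1), and the replicate block called 8, 0 and 0 members and 15, 0 and 0 other genes.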
